A study of Mus musculus with 18 samples.

Results

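Retinoic acid is the hormone-like acid that cells make from vitamin A, and it is one of the signals that the eye uses while it grows. Retinol is oxidized to retinaldehyde, the retinaldehyde dehydrogenases turn that into retinoic acid, and the CYP26 oxidases break it down, so that the balance of making and breaking sets the local supply. Retinoic acid then binds receptors of the RAR family on DNA, which pair with RXR and switch on target genes, *Cyp26a1* and *Rarb* among them. The retina, the retinal pigment epithelium (RPE), the choroid and the sclera lie close together, and in the back of the eye the choroid is known as a site of retinoic acid synthesis.

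Of this system, 10 genes were followed, of the 52636 genes in the count table, and their group means were known when they were selected. Levels and fold changes of these 10 genes, chosen by their role and measured in these libraries, are therefore given as a description. No *P*-value is printed for any of them, and where the fits called or passed one of them, this is reported as a description too and supports nothing. They were the makers *Aldh1a1*, *Aldh1a2* and *Aldh1a3*, the retinol oxidase *Dhrs9*, the retinaldehyde reductase *Dhrs3*, the breakdown enzymes *Cyp26a1* and *Cyp26b1*, the carrier *Crabp1*, and the receptors *Rara* and *Rarb*. Tests were kept for 66 other retinoid genes in 5 lists.

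RNA-seq was done on RPE, as the extraction protocol has it, although the tissue label reads retinal, of C57BL/6 mice at postnatal day 14, with 6 groups of 3 libraries and both eyes of 1 mouse in each library. The groups were Uninjected eyes and eyes that received AAV8, an adeno-associated virus, under the retina at birth. The virus carried GFP, nSREBP2 (the nuclear, active part of SREBP2), a control hairpin against LacZ (ctrl sh) or 1 of 2 hairpins against *Lrp2* (*Lrp2* sh1 and *Lrp2* sh2), each driven by the *Best1* promoter, which is active in the RPE. GFP was the control of nSREBP2, ctrl sh was the control of both hairpins, and the hairpins therefore share their control libraries. Cells were loosened from the eyecup with papain after the retina had been taken away, so that RNA of choroid, sclera and other neighbors can be in the libraries, and the virus acts in only some of the cells whose RNA was read. In such bulk samples, fewer cells of a type and less RNA per cell cannot be told apart. Nothing in the labels ties libraries to litters or days, and each library is 1 mouse.

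Depth was lowest in the Uninjected libraries (8921885 to 10232105 counts) and reached 13696934 counts in ctrl sh. Levels are CPM, counts scaled to library size with TMM factors, and 3 counts, the limit that a count of 0 allows, correspond to 0.218 to 0.323 CPM depending on the library. This limit covers counting error only.

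Several libraries stood apart in their cell type markers. *Rpe65*, the isomerase that defines mature RPE, had 371 to 1115 CPM in Uninjected libraries but 1.06 to 2.29 CPM in GFP, 2.44 to 3.76 CPM in nSREBP2 and 1.77 to 97.8 CPM in ctrl sh. It had 3.56 to 44.1 CPM in *Lrp2* sh1 and 3.51 to 15.7 CPM in *Lrp2* sh2, so this defining marker was far below the Uninjected level in every injected library. The sum of 10 RPE markers, of which *Tyrp1* was the most abundant, differed less, with means of 6332 CPM in Uninjected, 3388 CPM in GFP and 4899.6 CPM in ctrl sh. It was 3060 CPM in nSREBP2, 3807 CPM in *Lrp2* sh1 and 3105 CPM in *Lrp2* sh2. Uninjected replicate 1 carried lens RNA, with 1056 CPM over 6 lens markers (most abundant *Cryaa*) against 2.95 to 5.30 CPM in the other 17 libraries. No marker in these lists was at 0 in all libraries.

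The Y-linked genes marked all 3 nSREBP2 mice as male and all 3 GFP mice as female. The ctrl sh and *Lrp2* sh1 mice were all female, 2 of the 3 *Lrp2* sh2 mice were male, and so was Uninjected replicate 3. Within the libraries of the nSREBP2 comparison, sex and treatment cannot be told apart, and a fit of all 18 libraries with sex as a term is given where it bears on a value.

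The manipulated genes followed their labels. *Lrp2*, the endocytic receptor megalin, had 25.3 to 38.1 CPM in nSREBP2 libraries, 29.7 to 42.8 CPM in *Lrp2* sh1 and 34.5 to 43.9 CPM in *Lrp2* sh2, below the 87.6 to 175 CPM of GFP and ctrl sh libraries. *Srebf2*, the gene of SREBP2, had 207 to 236 CPM in nSREBP2 libraries and 82.9 to 122 CPM in all libraries of the 5 other groups.

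Sequences near the starts of these genes bear on how the receptors can feed back on the enzymes. RefSeq promoters (GRCm38.p6, 250 bases before to 50 after the start) were found for 9 of the 10 genes, with *Aldh1a3* missing, and searched on both strands for direct repeats of AGGTCA, with the hexamer GGTTCA or the hexamer AGTTCA also allowed at either place, and a spacing of 1, 2 or 5 bases. Such a repeat was present at *Cyp26a1* and *Rarb*, and in 0.371% of all 32851 promoters in the table. A single AGGTCA was present at *Dhrs9* and downstream of 1 start of *Rara*, and in 16.3% of all promoters. The 3 stretches before a start are printed 5′ to 3′ on the strand of the gene, with capitals for the repeat and its spacer or, for *Dhrs9*, the single hexamer on the opposite strand.
Cyp26a1, chr19:37697769-37697798, plus strand: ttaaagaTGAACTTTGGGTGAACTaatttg
Rarb, chr14:16575507-16575536, minus strand: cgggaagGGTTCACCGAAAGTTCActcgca
Dhrs9, chr2:69380362-69380391, plus strand: tttggaaacctgTGACCTacaatctccccg
The repeats have a spacing of 5 and end 15 bases before the *Cyp26a1* start and 36 bases before the *Rarb* start. These letter matches describe the sequence and are not shown to be bound here. The *Cyp26b1* window held no match, which says only that these letters are not within it.

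Per length of exon, *Aldh1a2* was the most abundant of the 10 genes, with a mean of 53.2 CPM per kb over the 18 libraries. *Dhrs3* followed with 40.9 CPM per kb, and *Rara* (14.6), *Cyp26b1* (14.1), *Cyp26a1* (13.2) and *Aldh1a1* (11.2 CPM per kb) lay close together. *Rarb* (6.04) and *Aldh1a3* (5.98 CPM per kb) were lower, and *Dhrs9* (0.531) and *Crabp1* (0.347 CPM per kb) were near the limit of detection in most libraries. The spread between mice, as a within-group SD on the log2 CPM scale, was widest for the sparse *Dhrs9* and *Crabp1* (0.71 and 0.70). Among the other 8 genes it was widest for *Aldh1a3* (0.51) and narrowest for *Rarb* (0.08) and *Rara* (0.10).

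**Figure D1:**
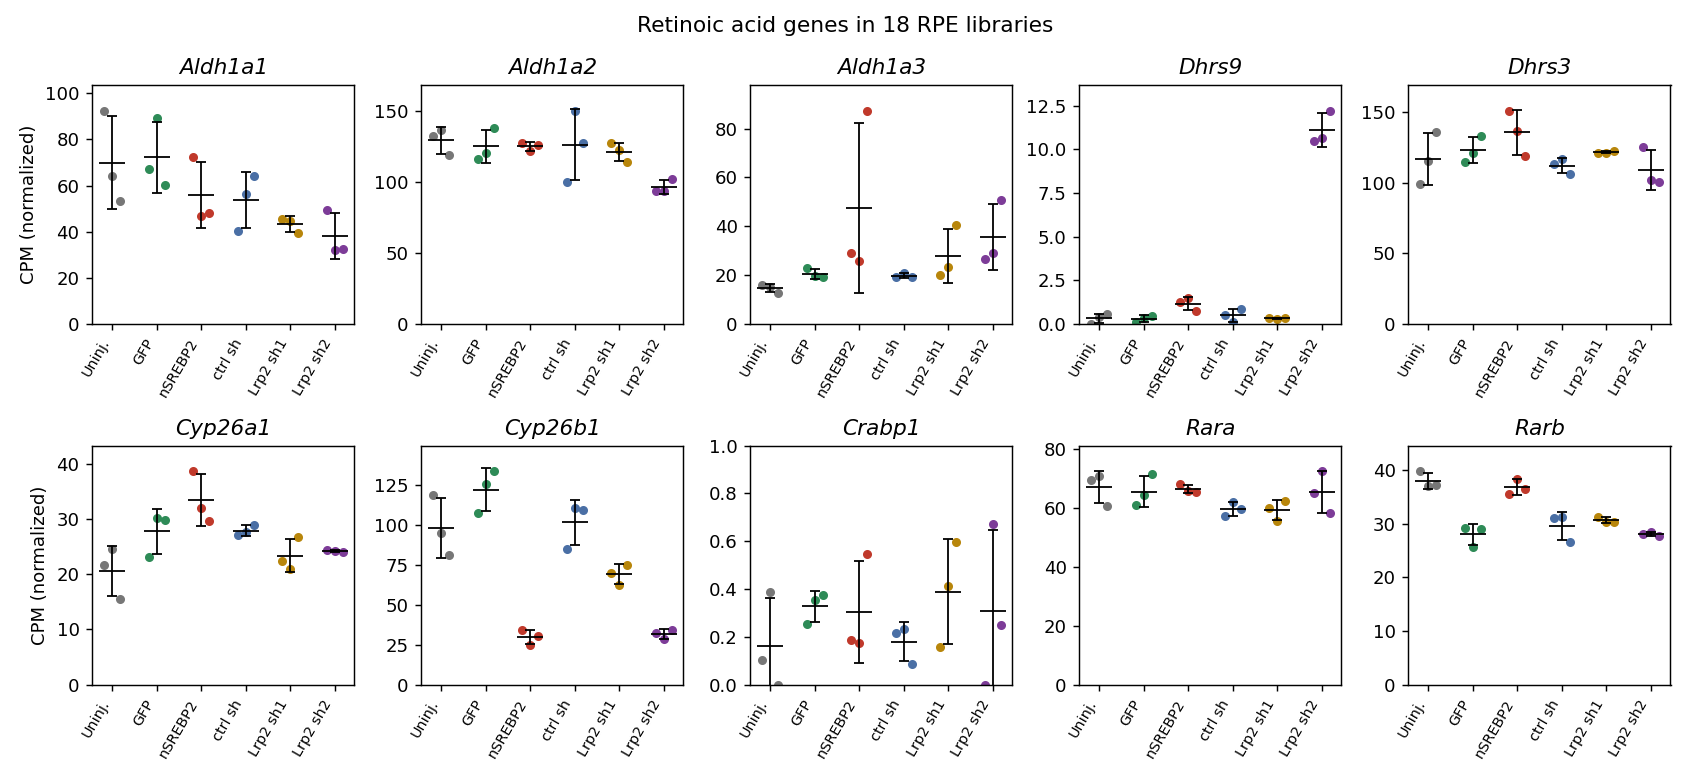
CPM of each of the 10 genes (y axis, from 0) in every library (points, replicates 1 to 3 from left to right) of the 6 groups (x axis), with the group mean and SD as bars. *Cyp26b1* sits between 24.9 and 34.3 CPM in the 6 nSREBP2 and *Lrp2* sh2 libraries and at 62.5 CPM or more in all others, and *Dhrs9* stands out only in *Lrp2* sh2.

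*Cyp26b1*, the oxidase that clears retinoic acid in many developing tissues, had the widest spread of group means among the 8 genes present in every group. It lies on chromosome 6 of GRCm38 from 84571414 to 84593908 on the minus strand (ENSMUSG00000063415.12). In Uninjected libraries it had 119, 95.2 and 81.2 CPM, in GFP 108, 126 and 134 CPM, and in ctrl sh 85.2, 111 and 109.5 CPM, and these 3 groups overlapped. In nSREBP2 libraries it had 33.9, 24.9 and 30.5 CPM, all below every GFP library. The mean was 29.8 ± 4.56 CPM (SD, n = 3) against 122 ± 13.3 CPM (SD, n = 3) in GFP, 4.12-fold lower, a log2FC of −2.04 (SE 0.12).

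*Lrp2* sh1 libraries had 70.0, 62.5 and 74.9 CPM of *Cyp26b1*, below all ctrl sh libraries. The mean of 69.1 ± 6.25 CPM (SD, n = 3) was 1.47-fold lower than the 102 ± 14.3 CPM (SD, n = 3) of ctrl sh, a log2FC of −0.56 (SE 0.11). *Lrp2* sh2 libraries had 32.6, 28.4 and 34.3 CPM, in the range of nSREBP2. This mean of 31.8 ± 3.03 CPM (SD, n = 3) was 3.18-fold lower than ctrl sh (log2FC −1.67, SE 0.12) and 2.17-fold lower than *Lrp2* sh1 (log2FC −1.11, SE 0.09). The hairpins thus differed in *Cyp26b1* although their *Lrp2* levels, 36.9 ± 6.65 and 38.7 ± 4.73 CPM (SD, n = 3), overlapped.

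The order of the *Cyp26b1* group means was GFP, ctrl sh and Uninjected, which overlapped as neighbors, then *Lrp2* sh1, which overlapped with none, and then *Lrp2* sh2 and nSREBP2, which overlapped. With sex as a term in the fit of all libraries, the log2FC was −1.82 in nSREBP2 versus GFP, −1.52 in *Lrp2* sh2 versus ctrl sh and −0.97 in *Lrp2* sh2 versus *Lrp2* sh1, the last of which then missed the fold threshold. The part of sex in the *Cyp26b1* level was not tested beyond this fit.

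Endothelial markers were lower in the 2 groups lowest in *Cyp26b1*. Summed over 8 of them (*Kdr* the most abundant, none at 0), the libraries had 1307 to 1382 CPM in nSREBP2 and 1211 to 1258 CPM in *Lrp2* sh2, against 1681 to 2132 CPM in GFP, 1818 to 1913 CPM in ctrl sh, 1671 to 1781 CPM in *Lrp2* sh1 and 1900 to 2167 CPM in Uninjected. Of the 8, 6 were lower at an adjusted *P* under 0.05 (edgeR) in nSREBP2 versus GFP and 7 in *Lrp2* sh2 versus ctrl sh, with median log2FCs of −0.50 and −0.60. In *Lrp2* sh1 versus ctrl sh, where the *Cyp26b1* log2FC was −0.56 without overlap, 1 of the 8 was lower and the median log2FC was −0.10. Over the 18 libraries, the log2 levels of *Cyp26b1* and of this sum had a Pearson r of 0.892, a description of points that share their groups. The part of endothelial RNA in the *Cyp26b1* level was not tested. Of the 8 markers, *Plvap* had the widest log2FCs, −0.92 in nSREBP2 and −0.95 in *Lrp2* sh2.

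The sum of fibroblast markers ran opposite to *Cyp26b1*, with r = −0.601 over the 18 libraries, again a description of points that share their groups. The 10 markers (*Col1a1* the most abundant, none at 0) summed to 72311 to 87759 CPM in nSREBP2 against 35209 to 44645 CPM in GFP, and all 10 passed an adjusted *P* under 0.05 upward, with a median log2FC of 0.88. In *Lrp2* sh2 the sum was 43410 to 51755 CPM and in ctrl sh 33961 to 47707 CPM, ranges that overlapped, although 4 of the 10 markers passed upward. The part of fibroblast RNA in the *Cyp26b1* level was not tested.

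**Figure D2:**
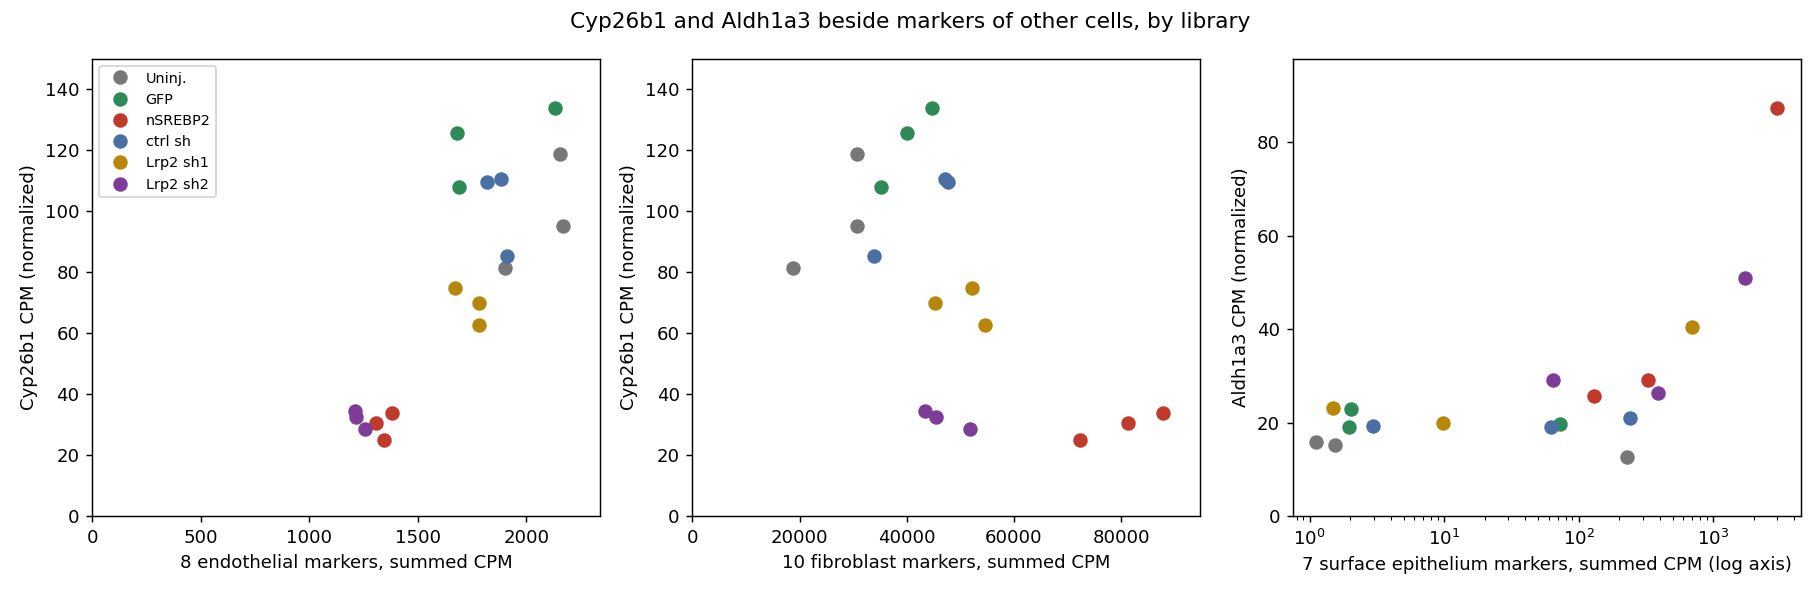
Each point is 1 library, colored by group. *Cyp26b1* CPM (y axis) is plotted against the summed CPM of 8 endothelial markers (left) and of 10 fibroblast markers (middle), and *Aldh1a3* CPM against the summed CPM of 7 surface epithelium markers on a log axis (right). The 6 libraries lowest in *Cyp26b1* are the 6 lowest in endothelial markers, and the 3 libraries with the most *Aldh1a3* are the 3 with the most epithelial markers.

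By likeness over the 18 libraries, the genes closest to *Cyp26b1* were *Klhl5* (r = 0.966), *Slc24a3* (r = 0.962) and *Ptpru* (r = 0.959).

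*Cyp26a1*, another CYP26 oxidase and a textbook target of retinoic acid, did not follow *Cyp26b1*. It had 38.6, 32.1 and 29.6 CPM in nSREBP2 and 23.1, 30.3 and 29.9 CPM in GFP, groups that overlapped (log2FC 0.26, SE 0.13). *Lrp2* sh1 (22.4, 20.9 and 26.7 CPM) and *Lrp2* sh2 (24.4, 24.1 and 23.9 CPM) were both below ctrl sh (27.1, 27.6 and 28.9 CPM), but only by log2FCs of −0.26 and −0.20. Uninjected libraries were the lowest on average, with 21.6, 24.5 and 15.5 CPM. Over all libraries *Cyp26a1* stayed within a 2.49-fold range, while *Cyp26b1* spanned 5.37-fold. Any part of the repeat before the *Cyp26a1* start, printed above, in its level was not tested.

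In sum per kb, *Cyp26a1* and *Cyp26b1*, here the CYP26 pair, had 36.9 ± 4.44 CPM per kb (SD, n = 3) in GFP and 22.4 ± 2.95 in nSREBP2. *Cyp26b1* made up 62.1% of this sum in GFP and 24.9% in nSREBP2. *Cyp26c1*, a further CYP26 oxidase with a mean of 1.69 CPM per kb over all libraries, was left out of the sum. In ctrl sh the sum was 33.1 ± 3.04 CPM per kb (SD, n = 3), of which *Cyp26b1* was 57.3%. It was 24.7 ± 2.63 in *Lrp2* sh1 (52.4%) and 18.1 ± 0.545 in *Lrp2* sh2 (32.7%). The larger member of the pair was therefore *Cyp26b1* in both controls and *Cyp26a1* in nSREBP2 and *Lrp2* sh2.

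*Aldh1a2*, the maker expressed in choroid and other mesenchyme, supplied 66.0% to 80.6% of the summed level of *Aldh1a1*, *Aldh1a2* and *Aldh1a3* per kb in every library. It had 127, 122 and 126 CPM in nSREBP2 and 116, 121 and 138 CPM in GFP, groups that overlapped (log2FC −0.0045, SE 0.08). *Lrp2* sh1 had 127, 122 and 114 CPM, within the ctrl sh range of 100.3, 150.3 and 128 CPM (log2FC −0.06, SE 0.13). *Lrp2* sh2 had 93.7, 93.9 and 102 CPM, below every *Lrp2* sh1 library (log2FC −0.32, SE 0.07) but overlapping with ctrl sh (log2FC −0.38, SE 0.13). Closest to it in pattern were *Akap12* (r = 0.896), *Erg* (r = 0.881) and *Thbd* (r = 0.867), of which *Erg* and *Thbd* are known from endothelium. These r values describe points that share their groups. Of the 8 endothelial markers, 6 passed downward in nSREBP2 versus GFP, 1 in *Lrp2* sh1 and 7 in *Lrp2* sh2 versus ctrl sh. The part of endothelial RNA in the *Aldh1a2* level was not tested.

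*Aldh1a1*, the maker of the dorsal retina, was highest in GFP (67.0, 89.5 and 60.3 CPM) and Uninjected (92.6, 64.1 and 53.3 CPM) and lowest in *Lrp2* sh2 (49.6, 32.03 and 32.6 CPM). Neighboring groups in this order all overlapped, and so did each comparison with its control, with log2FCs of −0.38 (SE 0.18) in nSREBP2, −0.31 (SE 0.15) in *Lrp2* sh1 and −0.48 (SE 0.20) in *Lrp2* sh2. With sex as a term, the nSREBP2 value turned to 0.20 (SE 0.28) and the *Lrp2* sh2 value shrank to −0.13 (SE 0.23). Its closest genes were *Lpar6* (r = 0.854), *Atp8a1* (r = 0.820) and *Chrdl1* (r = 0.818). *Aldh1a1* lies on chromosome 19 beside its near-copy *Aldh1a7*, and reads shared by the pair could have been lost or split in counting.

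*Aldh1a3*, the maker of the ventral retina and of many surface epithelia, was lifted by single libraries. It had 15.9, 15.2 and 12.6 CPM in Uninjected, 22.8, 19.7 and 18.98 CPM in GFP and 19.1, 20.9 and 19.2 CPM in ctrl sh. In nSREBP2 it had 29.1, 25.8 and 87.4 CPM, in *Lrp2* sh1 19.99, 23.1 and 40.5 CPM, and in *Lrp2* sh2 26.4, 29.1 and 50.9 CPM. All nSREBP2 libraries were above all GFP libraries and all *Lrp2* sh2 libraries above all ctrl sh libraries, while *Lrp2* sh1 overlapped with ctrl sh.

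The log2FC of *Aldh1a3* was 1.20 (SE 0.40) in nSREBP2 versus GFP, where it was not called. It was 0.42 (SE 0.12) without nSREBP2 replicate 3, and 1.46 without replicate 1, where it was called, as it was without replicate 2. In *Lrp2* sh2 versus ctrl sh it was 0.85 (SE 0.22), not called, and 0.50 (SE 0.11) without *Lrp2* sh2 replicate 3, and 1.02, called, without replicate 1. It was 0.50 (SE 0.22) in *Lrp2* sh1 versus ctrl sh. The same 3 libraries were rich in RNA of a stratified surface epithelium. Over 7 keratinocyte genes, chosen after these values were seen (*Krt5* the most abundant, none at 0), they had 3009 CPM (nSREBP2 replicate 3), 1715 CPM (*Lrp2* sh2 replicate 3) and 692 CPM (*Lrp2* sh1 replicate 3). The other 15 libraries had 1.11 to 393 CPM, the highest in *Lrp2* sh2 replicate 1 and next nSREBP2 replicate 1 with 329 CPM. Among them, ctrl sh replicate 2 had 242 CPM of this sum with 20.9 CPM of *Aldh1a3*. Uninjected replicate 3 had 229 CPM of the sum with 12.6 CPM of *Aldh1a3*, the lowest of all libraries.

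Over the 18 libraries the log2 levels of *Aldh1a3* and of this sum had r = 0.678, again a description of points that share their groups, and the part of epithelial RNA in the *Aldh1a3* level was not tested. *Sprr1a* (r = 0.949), a gene of cornified epithelia, was the gene closest to *Aldh1a3*, followed by *Cdc20* (r = 0.927) and *Samd9l* (r = 0.926).

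Per kb, the summed *Aldh1a* level was 76.8 ± 7.79 in nSREBP2 and 74.3 ± 3.90 in GFP, and 68.4 ± 1.27 in *Lrp2* sh1, 58.0 ± 4.25 in *Lrp2* sh2 and 70.8 ± 13.1 CPM per kb in ctrl sh (SD, n = 3 each). Set against the sum of the CYP26 pair, without *Cyp26c1*, the makers stood at a ratio of 1.93 to 2.20 in GFP libraries and 2.99 to 4.09 in nSREBP2 libraries. The ratio was 1.91 to 2.38 in ctrl sh, 2.45 to 3.07 in *Lrp2* sh1, 3.10 to 3.39 in *Lrp2* sh2 and 2.44 to 2.87 in Uninjected. All 3 manipulated groups were above their controls in each library, and in all 3 the CYP26 sum was below the range of GFP or ctrl sh. Their *Aldh1a* sums overlapped with those of their controls, and the *Lrp2* sh1 ratios overlapped with those of Uninjected. The genes were chosen with their levels known, so this is a description and nothing is read from the separation. The Uninjected libraries had CYP26 sums of 33.1, 30.1 and 23.0 CPM per kb, which overlapped with those of *Lrp2* sh1 (22.2 to 27.5) and nSREBP2 (20.6 to 25.8 CPM per kb). These ratios concern RNA, and neither enzyme activity nor retinoic acid was measured.

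*Dhrs9*, a short-chain dehydrogenase that oxidizes retinol, was at or below 1.48 CPM in 15 of the 18 libraries and stood out in *Lrp2* sh2. It had 10.5, 10.6 and 12.2 CPM there (131, 127 and 146 counts), against 0.508, 0.0781 and 0.843 CPM in ctrl sh (7, 1 and 10 counts) and 0.316, 0.248 and 0.340 CPM in *Lrp2* sh1. The mean was 11.1 ± 0.967 CPM (SD, n = 3) and the log2FC 4.55 (SE 0.38) versus ctrl sh and 5.16 (SE 0.23) versus *Lrp2* sh1. Summed over libraries, 404 counts stood against 18 in ctrl sh, a ratio of 23.7 after scaling, and against 11 in *Lrp2* sh1, a ratio of 36.9. Replicate 1, with 10.5 CPM, was the female of the 3 *Lrp2* sh2 mice, and the part of sex in the *Dhrs9* level was not tested on its own. With sex as a term the log2FC was 4.32 versus ctrl sh.

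In nSREBP2 libraries *Dhrs9* had 1.22, 1.48 and 0.731 CPM, above the 0.0849, 0.355 and 0.450 CPM of GFP. The 38 counts against 11 gave a ratio of 3.80 after scaling, given as a description, and the gene was below the filter on low counts in that comparison. *Dhrs9* lies on chromosome 2 from 69380445 to 69404533 (plus strand, ENSMUSG00000027068.6), 19806 bases from the end of *Lrp2* (69424340 to 69586065, minus strand), the gene that both hairpins target. *Bbs5*, a cilium gene, lies on the other side of *Lrp2*, 61105 bases away. It was higher in *Lrp2* sh2 than in ctrl sh (8.09 ± 1.04 against 4.30 ± 0.246 CPM, SD, n = 3). Its log2FC there was 0.92 (SE 0.16, adjusted *P* = 0.00469, edgeR), in a comparison where 8.59% of all genes passed upward. In *Lrp2* sh1 its log2FC was 0.32 (adjusted *P* = 0.353, edgeR). Any part of the position beside *Lrp2* in the *Dhrs9* and *Bbs5* levels was not tested.

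The neighbors *Klhl41*, *Fastkd1* and *Ppig* did not pass in *Lrp2* sh2 versus ctrl sh (adjusted *P* = 0.603, 0.170 and 0.175, edgeR), and *Abcb11* and the pseudogene *Gm13614* were too low to test. The genes closest to *Dhrs9* in pattern were *Hap1* (r = 0.930), *Foxj1* (r = 0.929), the regulator of motile cilia, and *Endod1* (r = 0.925), over points of which the 3 *Lrp2* sh2 libraries are the only high ones in *Dhrs9*.

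*Dhrs3*, which turns retinaldehyde back into retinol and is known as a retinoic acid target, had 99.2 to 151 CPM in all 18 libraries. It had 151, 137 and 119 CPM in nSREBP2 against 115, 121 and 133 CPM in GFP (log2FC 0.14, SE 0.10), and its log2FC was 0.12 (SE 0.06) in *Lrp2* sh1 and −0.03 (SE 0.09) in *Lrp2* sh2. Its nearest genes were *Ypel3* (r = 0.928) and the pigment cell genes *Slc45a2* (r = 0.835) and *Gpnmb* (r = 0.832). *Crabp1*, a carrier of retinoic acid in the cytosol, had 0 to 8 counts a library, at most 0.671 CPM, and no fold is given.

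Of the receptors, *Rara* had 55.7 to 72.4 CPM in all libraries. As highest over lowest library this is 1.30-fold, the narrowest among those of the 10 genes with a count in every library. Its log2FC was 0.02 (SE 0.07) in nSREBP2, −0.01 (SE 0.07) in *Lrp2* sh1 and 0.14 (SE 0.09) in *Lrp2* sh2, and its nearest genes were *Prkca* (r = 0.808), *Prkce* (r = 0.795) and *Foxj2* (r = 0.791).

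*Rarb*, the receptor gene with a repeat before its start, had 35.4, 38.3 and 36.5 CPM in nSREBP2 and 29.2, 25.6 and 29.0 CPM in GFP, with no overlap (log2FC 0.39, SE 0.09). The Uninjected libraries, with 39.7, 37.0 and 37.1 CPM, were above GFP (log2FC of GFP versus Uninjected −0.46, SE 0.10) and above ctrl sh (31.0, 31.2 and 26.6 CPM). The nSREBP2 libraries thus overlapped with the Uninjected ones, and the other 4 injected groups lay at 25.6 to 31.3 CPM. *Lrp2* sh1 (31.3, 30.3 and 30.4 CPM) and *Lrp2* sh2 (28.1, 28.3 and 27.6 CPM) overlapped with ctrl sh (log2FCs of 0.05 and −0.07). Of its exons, 2020 bases are overlapped on the opposite strand by *Top2b* and *Gm48162*, and because the use of strand in counting is not given, reads of these genes can be within the *Rarb* count. Its nearest genes were *Adra2a* (r = 0.897), *Npas2* (r = 0.856) and *Rusc1* (r = 0.852).

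**Figure D3:**
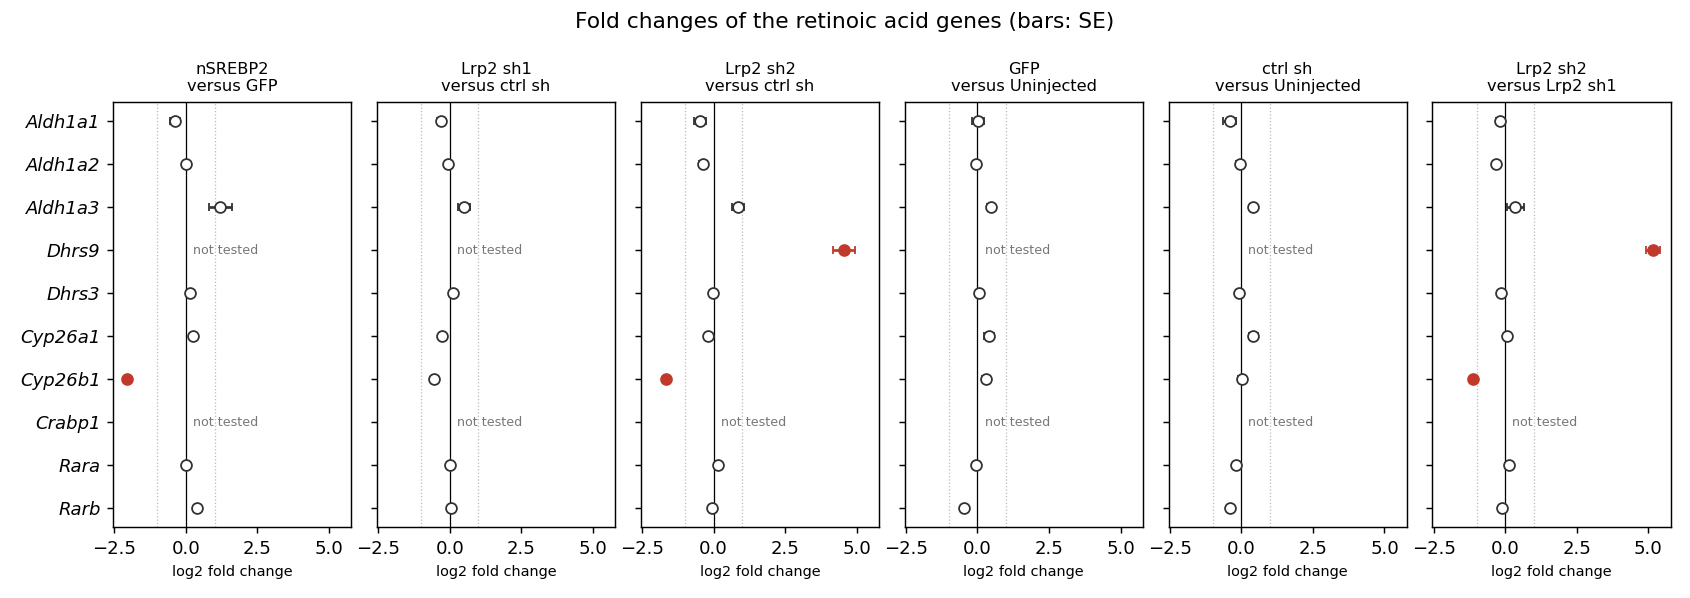
Log2 fold change with its SE (bars) for the 10 genes in the 6 comparisons, from edgeR fits of the 2 groups. Filled points were called at an adjusted P under 0.05 and an absolute log2FC above 1 (dotted lines). *Cyp26b1* is filled in 3 comparisons and *Dhrs9* in 2.

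Counted by the study's call rule, an adjusted *P* under 0.05 (edgeR, over all genes tested) with an absolute log2FC above 1, *Cyp26b1* alone was called in nSREBP2 versus GFP, among 8 of the 10 genes that passed the filter on low counts. By this rule 6.67% of all 17927 genes tested were called in that comparison. In *Lrp2* sh2 versus ctrl sh, where 9 of the 10 passed the filter, *Cyp26b1* was called downward and *Dhrs9* upward, against 4.76% of all genes. Both were also called in *Lrp2* sh2 versus *Lrp2* sh1 (9 tested, 5.13% of all genes). *Dhrs9* passed the filter on low counts only in comparisons with *Lrp2* sh2, the group where it is high, so nothing is read from its calls there.

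None of the 8 genes tested was called in *Lrp2* sh1 versus ctrl sh (0.994% of all genes), GFP versus Uninjected (1.41%) or ctrl sh versus Uninjected (2.39%). At an unadjusted *P* under 0.05 these counts were 2, 3 and 4 (edgeR), and DESeq2 called 0 in each. By the adjusted *P* alone, *Rarb* was added upward in nSREBP2, where 12.6% of all genes passed upward and 8.47% downward. *Cyp26b1* was added downward in *Lrp2* sh1, with 3.06% of all genes passing upward and 2.28% downward. *Aldh1a3* was added upward in *Lrp2* sh2, with 8.59% upward and 9.48% downward. In GFP versus Uninjected *Rarb* passed downward (0.662% of all genes upward and 1.82% downward). Between the hairpins *Aldh1a2* passed downward in *Lrp2* sh2 (10.2% upward and 12.3% downward). The genes were chosen with these contrasts known, and nothing is read from their counts.

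Over the genes tested, the median log2FC of the group was 0.08 in nSREBP2, −0.03 in *Lrp2* sh1 and −0.07 in *Lrp2* sh2, beside medians of −0.02, −0.01 and 0.01 over all genes. Among the genes themselves, the strongest pairings of log2 CPM over the 18 libraries were those of *Dhrs9* with *Cyp26b1* (r = −0.749) and with *Aldh1a2* (r = −0.737), and of *Aldh1a3* with *Cyp26b1* (r = −0.638). The *Lrp2* sh2 libraries are the only ones with *Dhrs9* above 2 CPM, and these correlations were not computed without them.

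The 66 other retinoid genes, which hold none of the 10, give the surroundings of these changes. In nSREBP2 versus GFP, 49 were tested, and 11 rose and 6 fell at an adjusted *P* under 0.05 (edgeR), beside 12.6% and 8.47% of all genes. In *Lrp2* sh1 versus ctrl sh 1 rose and 2 fell of 48, beside 3.06% and 2.28% of all genes. In *Lrp2* sh2 versus ctrl sh 6 rose and 9 fell of 48, beside 8.59% and 9.48%. These shares also stand beside the counts of each list below. By the call rule the counts were 7 up and 2 down, 0 up and 1 down, and 2 up and 4 down, beside 6.67%, 0.994% and 4.76% of all genes. The median log2FCs were −0.06, −0.04 and −0.10, against −0.02, −0.01 and 0.01 over all genes.

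Of the retinol and retinaldehyde dehydrogenases, which interconvert the precursors, 13 were tested in nSREBP2 versus GFP. Of these, 4 rose, 1 fell and 8 did not pass, beside 12.6% up and 8.47% down of all genes, and their median log2FC was −0.06. The 1 that fell, *Rdh5*, was named after its values were seen (log2FC −1.10, adjusted *P* = 0.000648, edgeR). *Rdh11*, a microsomal retinaldehyde reductase that is also known as a sterol-responsive gene, had 50.9, 51.3 and 72.0 CPM in nSREBP2 libraries and 19.5 to 21.8 CPM in GFP (log2FC 1.497, SE 0.13, adjusted *P* = 6.44e-05, edgeR). *Rdh8*, a photoreceptor reductase, was at 2.10 to 4.14 CPM against 0 to 0.532 CPM (log2FC 3.14, SE 0.58). *Rdh8* passed the filter on low counts only in this comparison, through the nSREBP2 libraries where it is high. No *P*-value is therefore given for it, and nothing is read from its place among the 4 that rose. The rod photoreceptor sum (15 markers, *Abca4* the most abundant, none at 0) was 373 to 535 CPM in nSREBP2 and 202 to 475 CPM in GFP. Of the 15, 14 had a positive log2FC (median 1.23), 2 passed upward and 1 downward (edgeR), and the part of rod RNA in the *Rdh8* level was not tested.

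*Adh7*, an alcohol dehydrogenase of surface epithelia, had 8.18, 4.18 and 57.7 CPM in nSREBP2 against 0.300 to 2.93 CPM in GFP (log2FC 3.97, SE 1.02, adjusted *P* = 0.0211, edgeR), with its peaks in the 3 libraries rich in keratinocyte genes. It did not pass in 3 of 6 fits with a library left out (highest adjusted *P* = 0.0827) nor in 2 of 7 other settings, among them sex as a term (adjusted *P* = 0.497).

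In *Lrp2* sh2, 2 dehydrogenases rose and 2 fell of 12 tested. *Rdh10*, which makes retinaldehyde for the retinoic acid route, had 78.3 to 97.2 CPM against 311 to 613 CPM in ctrl sh (log2FC −2.22, SE 0.23, adjusted *P* = 0.000359, edgeR). *Rdh5*, the retinol dehydrogenase of the visual cycle, had 16.8 to 22.4 CPM against 31.1 to 108 CPM (log2FC −1.58, SE 0.43, adjusted *P* = 0.0327, edgeR) but did not pass in 3 of 6 fits with a library left out. *Rdh12*, a photoreceptor reductase, rose from 0.674 to 1.31 CPM in ctrl sh to 3.01 to 7.99 CPM (log2FC 2.31, SE 0.43, adjusted *P* = 0.00581, edgeR). Rod markers were higher in *Lrp2* sh2 as well, with 12 of 15 passing upward, though the sums overlapped (186 to 601 CPM against 197 to 308 CPM), and their part was not tested. No dehydrogenase of 12 passed in *Lrp2* sh1 (2 at an unadjusted *P* under 0.05 with edgeR, 0 by DESeq2), where *Rdh10*, the most abundant, had 260 to 358 CPM (log2FC −0.48, SE 0.23, adjusted *P* = 0.285, edgeR).

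Of 4 other enzymes that make or oxidize retinoic acid, 3 were tested in nSREBP2 versus GFP and 1 rose. *Aldh1a7*, the near-copy of *Aldh1a1*, had 18.6, 20.2 and 32.1 CPM in nSREBP2 libraries and 0.300 to 2.57 CPM in GFP (log2FC 4.32, SE 0.46, adjusted *P* = 0.000199, edgeR), while *Aldh1a1* itself was not higher. Uninjected replicate 1, the library with lens RNA, had 8.17 CPM of *Aldh1a7*, and the lens sum was 4.70 to 5.30 CPM in nSREBP2. All 10 fibroblast markers and 7 of 8 macrophage markers passed upward in nSREBP2 versus GFP. The part of lens, fibroblast or macrophage RNA in the *Aldh1a7* level was not tested. *Cyp1b1*, an oxidase known for developmental glaucoma, was lower in *Lrp2* sh1 (66.7 to 76.6 CPM) than in ctrl sh (81.6 to 160 CPM), with a log2FC of −0.83 (SE 0.20, adjusted *P* = 0.0434, edgeR), but did not pass in 5 of 6 fits with a library left out. In *Lrp2* sh2 it had 104 to 107 CPM (log2FC −0.24, adjusted *P* = 0.450, edgeR).

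Genes of retinol uptake, binding and storage moved both ways. In nSREBP2 versus GFP, 2 of 9 tested rose and 1 fell. *Stra6l*, a relative of the retinol channel STRA6, had 3.47 to 5.83 CPM in nSREBP2 libraries (155 counts) and a single count in GFP. This is a ratio of 171 with an exact 95% counting interval of 30.2 to 6780. *Stra6l* passed the filter on low counts only in this comparison, through the nSREBP2 libraries where it is high. No *P*-value is therefore given for it, and nothing is read from its place among the 2 that rose. *Lrat*, which stores retinol as esters in the RPE, fell from 20.2 to 28.3 CPM to 9.03 to 9.24 CPM (log2FC −1.47, SE 0.14, adjusted *P* = 0.000105, edgeR), a call lost in 2 of 8 other settings, among them sex as a term (adjusted *P* = 0.107). *Ttr*, the carrier of retinol-binding protein in plasma, rose from 58.3 ± 16.3 to 105 ± 28.9 CPM (SD, n = 3), a log2FC of 0.84 (adjusted *P* = 0.0229, edgeR) that did not pass in 2 of 6 fits with a library left out or with sex as a term (adjusted *P* = 0.927). Against Uninjected in place of GFP the *Ttr* value turned to −4.02. Beside the falls of *Lrat* and *Rdh5* in nSREBP2 versus GFP, 3 of 10 RPE markers passed downward and 2 upward (median log2FC −0.13, edgeR). That list holds *Rdh5* and *Ttr* themselves, and the part of RPE RNA in these levels was not tested.

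In *Lrp2* sh2, *Lrat* had 5.62 to 9.04 CPM against 93.0 to 313 CPM in ctrl sh (log2FC −4.44, SE 0.48, adjusted *P* = 0.000380, edgeR) and *Ttr* 117 to 322 CPM against 1133 to 1954 CPM (log2FC −2.94, SE 0.38, adjusted *P* = 0.001000, edgeR). *Rbp3*, the retinoid carrier that photoreceptors secrete, had 24.4 to 92.6 CPM against 2.19 to 5.23 CPM (log2FC 3.91, SE 0.56, adjusted *P* = 0.00152, edgeR). RPE marker sums were 2959 to 3187 CPM in *Lrp2* sh2 and 4316 to 5689 CPM in ctrl sh, beside these falls of RPE genes, and *Ttr* and *Rdh5* are themselves on that marker list. In *Lrp2* sh1, *Bco1*, which cleaves carotene, had 0.237 to 0.510 CPM against 0.943 to 1.43 CPM in ctrl sh (log2FC −1.69, SE 0.41). It was called, but this call was kept in only 1 of 6 fits with a library left out. In 3 of 5 other settings *Bco1* did not pass. It passed the filter on low counts only in comparisons with ctrl sh, where it is high, so nothing is read from this call.

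**Figure D4:**
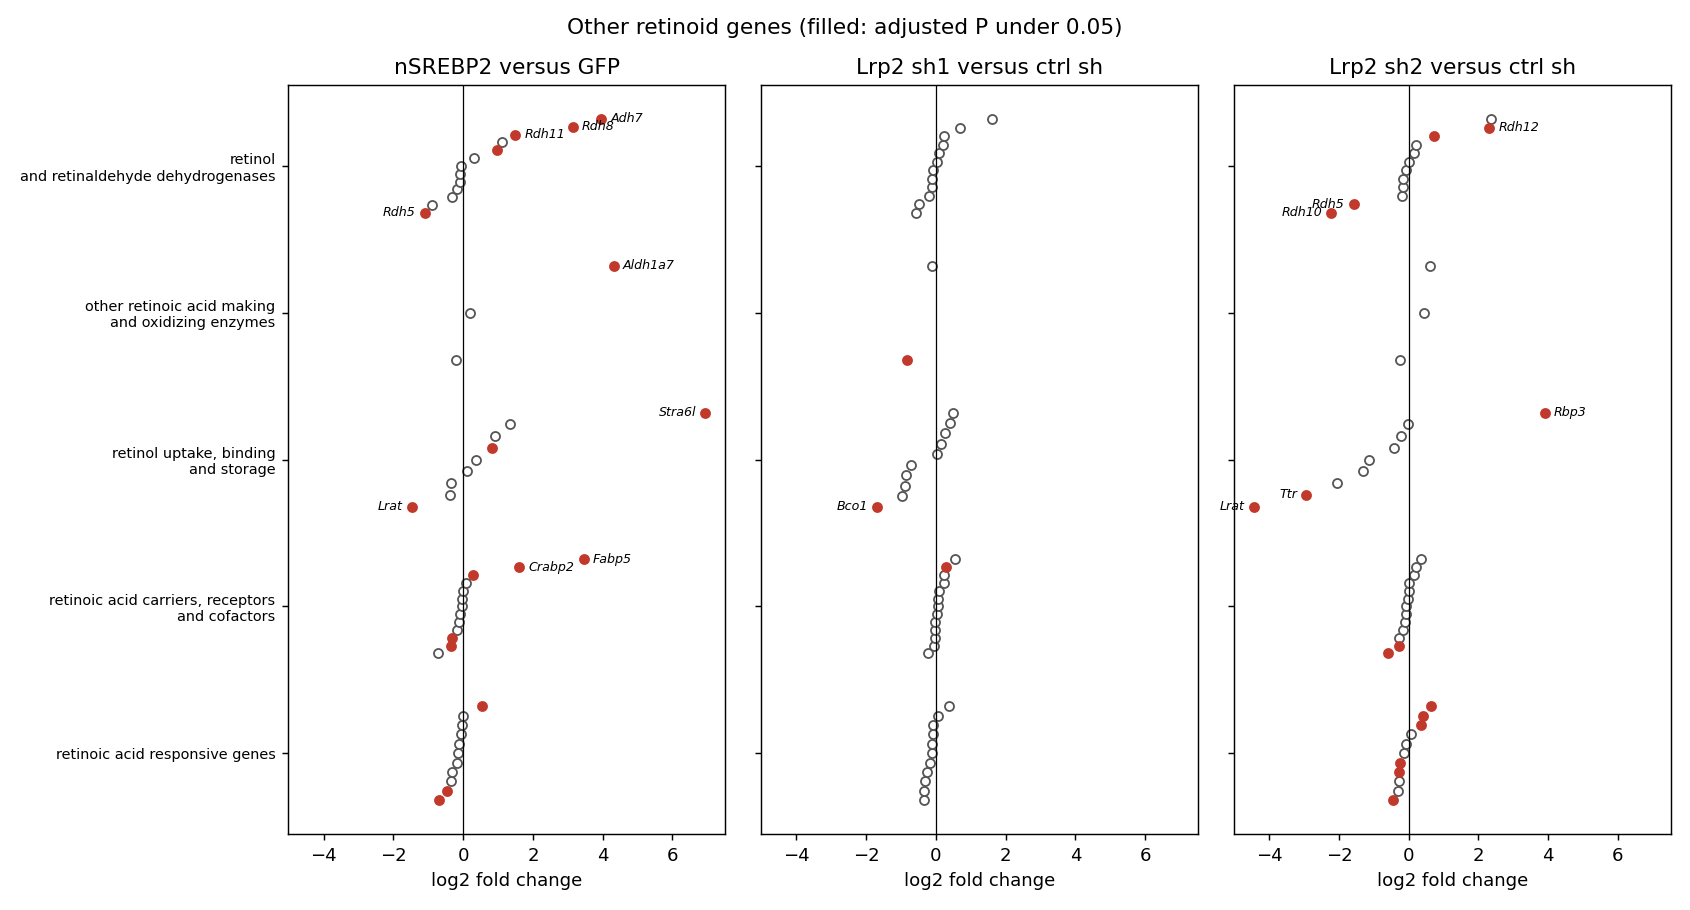
Log2 fold change (x axis) of the tested genes of the 5 other retinoid lists (y axis) in the 3 comparisons with the manipulated groups. Each point is a gene, and filled points passed an adjusted P under 0.05, with names for those beyond 1 in absolute log2FC. *Lrat* lies at −1.47 in nSREBP2 and −4.44 in *Lrp2* sh2, and the carriers *Fabp5* and *Crabp2* lie at 3.46 and 1.60 in nSREBP2.

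Of 13 carriers, receptors and cofactors, all tested, 3 rose and 2 fell in nSREBP2, 1 rose in *Lrp2* sh1 and 2 fell in *Lrp2* sh2. Both intracellular carriers of retinoic acid that were tested rose in nSREBP2. *Fabp5*, which carries fatty acids and retinoic acid, had 47.6, 63.8 and 74.0 CPM against 4.16 to 6.90 CPM in GFP (log2FC 3.46, SE 0.20, adjusted *P* = 5.82e-06, edgeR). *Crabp2*, which hands retinoic acid to RARs, had 17.9, 21.8 and 26.4 CPM against 6.98 to 7.73 CPM (log2FC 1.60, SE 0.15, adjusted *P* = 9.77e-05, edgeR). Beside these rises, 7 of 8 macrophage markers passed upward (median log2FC 0.95; *Csf1r* the most abundant, none at 0), with sums of 594 to 645 CPM in nSREBP2 and 368 to 439 CPM in GFP, and all 10 fibroblast markers rose as given above. Their part in the carrier levels was not tested. Neither carrier passed with a hairpin, with log2FCs of 0.25 and 0.54 in *Lrp2* sh1 (adjusted *P* = 0.755 and 0.0754, edgeR) and of 0.36 and 0.16 in *Lrp2* sh2 (adjusted *P* = 0.378 and 0.570, edgeR).

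The coactivator gene *Ncoa3* fell in nSREBP2 (log2FC −0.34, adjusted *P* = 0.0186, edgeR). There it did not pass in 3 of 6 fits with a library left out, nor in 1 of 8 other settings. *Ncoa3* also fell in *Lrp2* sh2 (−0.58, adjusted *P* = 0.00148, edgeR). *Rxra*, the partner receptor, fell in *Lrp2* sh2 (−0.28, adjusted *P* = 0.0149, edgeR) but did not pass in 1 of 8 other settings. *Rarg* rose in *Lrp2* sh1 (log2FC 0.28, adjusted *P* = 0.0442, edgeR), a call that 5 of 6 fits with a library left out did not keep.

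Of 16 genes listed as responsive to retinoic acid in other settings, 11 were tested in each comparison. In nSREBP2, 1 rose and 2 fell. *Nr2f2* and *Nr2f1*, orphan receptors of developing mesenchyme and vessels, had log2FCs of −0.68 (SE 0.08, adjusted *P* = 0.000291, edgeR) and −0.46 (SE 0.09, adjusted *P* = 0.00564, edgeR), the latter lost with sex as a term (adjusted *P* = 0.229). *Rai14*, an actin-linked protein first found as induced by retinoic acid, rose from 99.2 to 104 CPM to 131 to 161 CPM (log2FC 0.55, SE 0.08, adjusted *P* = 0.00130, edgeR).

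In *Lrp2* sh2, 3 rose and 3 fell, among them *Nr2f2* (log2FC −0.45, SE 0.07, adjusted *P* = 0.00176, edgeR), *Rai14* (0.42, SE 0.06, adjusted *P* = 0.00164, edgeR) and *Meis2* (0.64, SE 0.16, adjusted *P* = 0.0202, edgeR), the last not passing in 4 of 6 fits with a library left out. The falls of *Nr2f2* came in the 2 comparisons in which 6 and 7 of 8 endothelial markers fell (median log2FCs −0.50 and −0.60), and the part of endothelial RNA was not tested. None of the 11 passed in *Lrp2* sh1 (4 at an unadjusted *P* under 0.05 with edgeR, 1 by the adjusted *P* of DESeq2), where *Btg2*, the most abundant, had 255 ± 36.8 CPM against 269 ± 47.1 CPM (SD, n = 3) in ctrl sh (adjusted *P* = 0.821, edgeR). Medians of this list were −0.14, −0.11 and −0.13 in nSREBP2, *Lrp2* sh1 and *Lrp2* sh2, against −0.02, −0.01 and 0.01 over all genes.

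Between the GFP eyes and the Uninjected eyes, some retinoid genes outside the 10 differed. In GFP versus Uninjected, 47 other retinoid genes were tested, and 1 rose and 9 fell at an adjusted *P* under 0.05 (edgeR), beside 0.662% and 1.82% of all genes, with 6 of the 9 from the list of uptake, binding and storage, of which 8 were tested. All 10 were called, but without GFP replicate 2 only 4 other retinoid genes were, and the calls over all genes went from 251 to 57. The genes of this comparison were named after their values were seen. *Rpe65* had a log2FC of −8.95 (adjusted *P* = 0.000321, edgeR), *Ttr* of −4.86 (0.00210), *Lrat* of −4.63 (0.00276), *Stra6* of −3.22 (0.00516), *Rlbp1* of −2.95 (0.00963), *Rdh10* of −2.45 (0.0127) and *Rdh5* of −2.08 (0.0152). The single gene that rose was *Rbp3* (log2FC 4.07, adjusted *P* = 0.0288, edgeR). In the same comparison 4 of 10 RPE markers fell (median log2FC −0.71), a list that holds *Rpe65*, *Ttr*, *Rlbp1* and *Rdh5* themselves. Of 13 rod markers tested, 2 rose (median log2FC 2.54), and the part of either cell type in these changes was not tested.

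The ctrl sh libraries, also from injected eyes, had 1 gene up and 1 down of 47 against Uninjected, beside 3.13% and 3.37% of all genes, and 9 at an unadjusted *P* under 0.05 (edgeR). Several of the genes lower in GFP had negative log2FCs in ctrl sh too without passing, −4.59 for *Rpe65*, −1.90 for *Rdh5*, −1.87 for *Lrat*, −1.68 for *Rlbp1* and −1.22 for *Stra6* (adjusted *P* from 0.0613 to 0.169, edgeR), while *Ttr* and *Rdh10* were at −0.22. Both comparisons share the Uninjected libraries, and the difference between the 2 controls was not tested. The 10 genes had smaller values in GFP versus Uninjected, with log2FCs of 8 tested genes between −0.46 (*Rarb*) and 0.47 (*Aldh1a3*), and a median of 0.04. Without Uninjected replicate 1, the *Cyp26b1* value was 0.46 and that of *Rarb* −0.42.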

How the data were processed

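RNA-seq counts per gene were deposited by the authors as 1 table of whole-number, unnormalized counts for 18 libraries (rRNA depletion, directional kit), with STAR and the mouse build GRCm38 named in the submitters' processing notes. Which annotation was counted, and whether strand was used, is not given in the sources used here. Every column was matched to a library by its label. Of 52636 genes, 52403 were found in GENCODE M21, from which positions and exon lengths were taken, and 16093 had no count. Total counts ran from 8921885 to 13696934. Replicates differed by more than sampling noise (lowest chi-square per degree of freedom 3.30).

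Each comparison was fitted on its 6 libraries by the quasi-likelihood test of edgeR 4.0.16 (R 4.3.3) after filterByExpr and TMM scaling, with Benjamini-Hochberg adjustment over all genes tested. A gene was called at an adjusted P under 0.05 and an absolute log2FC above 1. CPM used TMM factors over all libraries, and log2 CPM for correlations a prior count of 2. Of each other retinoid list, up to 3 genes were named per comparison with the manipulated groups, those with the largest absolute log2FC among genes that passed without overlap between groups, or the most abundant where none passed. Other names are said to be chosen after their values were seen or stand as neighbors of *Lrp2*. Genes alike in pattern were the 3 with the highest Pearson r among genes with a mean of at least 1 CPM.

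The 10 genes and all lists were chosen with earlier results of these data known, and the keratinocyte genes after the libraries high in *Aldh1a3* had been seen. Scripts were tested on simulated data. Alternatives were DESeq2 1.42.0 or its size factors, other filters, 1 fit of all libraries, sex as a term, Uninjected as control, a replicate block and each library left out. Sex was read from 4 Y-linked genes. Promoter sequences were from RefSeq (GRCm38.p6). Promoter motifs were searched by exact letters on both strands.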

Additional observations from a re-analysis of the deposited data

Results flagged for a closer look

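The hairpins shared their target and their control libraries. The test of *Lrp2* sh2 versus *Lrp2* sh1 (edgeR, adjusted over all genes) is given here for other retinoid genes named for either hairpin versus ctrl sh, of which 12 passed it. *Bbs5*, the neighbor of *Lrp2* named above and not on these lists, also passed it (log2FC 0.60, adjusted P = 0.0302). *Lrat* was lower in *Lrp2* sh2 by a log2FC of −3.57 (adjusted P = 6.83e-05), *Ttr* of −2.23 (0.00153), *Rdh10* of −1.74 (1.15e-05) and *Rdh5* of −1.67 (3.09e-05). *Rbp3* was higher by 3.42 (adjusted P = 0.00224), *Rdh12* by 1.62 (0.0174), *Cyp1b1* by 0.59 (0.000294) and *Rai14* by 0.35 (0.00160). *Ncoa3* (log2FC −0.35, adjusted P = 0.00116), *Nr2f2* (−0.35, 0.00193), *Rarg* (−0.31, 0.0144) and *Rxra* (−0.25, 0.0170) were lower.

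Among the 10 genes, every *Lrp2* sh2 library had more *Dhrs9* than the ctrl sh mean and every *Lrp2* sh1 library less, and for *Rarb* the hairpins lay the other way round. In *Dhrs9*, however, *Lrp2* sh1 overlapped with ctrl sh, with 11 counts against 18. That ratio was 0.64 after scaling, with an exact 95% counting interval of 0.275 to 1.44. In *Rarb*, both hairpins overlapped with ctrl sh (log2FCs of 0.05 and −0.07). The mean of *Lrp2* sh2 minus that of *Lrp2* sh1 was 10.8 CPM for *Dhrs9* and −2.61 CPM for *Rarb*. These values are a description of genes chosen with their levels known, and no *P*-value of the difference is given. In the fit between the hairpins *Rarb* did not pass (log2FC −0.12, SE 0.07). *Dhrs9* passed the filter on low counts only in comparisons with *Lrp2* sh2, where it is high.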

How the results depend on the processing

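Over all alternatives, 187 of 258 counts stayed within 1.5 times their value and 71 did not, and of 412 values of named retinoid genes 358 kept their direction and side of the threshold, 49 no longer passed, 4 newly passed and 1 reversed. None of 673 values of the 10 genes reversed past a call, and 24 moved by more than the spread between replicates. The cause was not tested except where fewer or more genes entered the fit. By the adjusted P alone, the calls over all genes were 3770 (nSREBP2), 949 (*Lrp2* sh1), 3268 (*Lrp2* sh2), 442 (GFP), 1157 (ctrl sh, both against Uninjected) and 4029 (between the hairpins). In the same order, those among the 10 genes moved to 2 in nSREBP2, 1 in *Lrp2* sh1 and 1 in GFP versus Uninjected, and those among other retinoid genes to 17, 3, 15, 2 (ctrl sh) and 20. In GFP versus Uninjected (251 calls), DESeq2 gave 378, no filter 554, 1 fit of all libraries 534 and sex as a term 404. In ctrl sh versus Uninjected (426), no filter gave 687 and 1 fit of all libraries 746. With at least 10 counts in every library, *Lrp2* sh2 versus *Lrp2* sh1 (922) had 613.

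Among the 10 genes, nSREBP2 had 3 calls with no filter and with 1 fit of all libraries, and 2 against Uninjected. *Lrp2* sh2 versus ctrl sh had 1 with at least 10 counts, which removes *Dhrs9*, and *Lrp2* sh2 versus *Lrp2* sh1 had 1 with that filter and 1 with sex as a term. Among other retinoid genes, nSREBP2 (9) had 5 with at least 10 counts and 16 against Uninjected, where *Ttr* turned to −4.02. *Lrp2* sh1 (1) had 0 with DESeq2, at least 10 counts, 1 fit of all libraries or sex as a term, and 6 against Uninjected. *Lrp2* sh2 (6) had 11 with no filter and 10 against Uninjected, and *Lrp2* sh2 versus *Lrp2* sh1 (7) had 11 with no filter. The ctrl sh comparison (1) had 6 with no filter or 1 fit of all libraries, 0 with at least 10 counts and 5 with sex as a term.

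Same-numbered libraries correlated at −0.338 to 0.322, and most correlated better with a library of another number. The exceptions were in *Lrp2* sh2 versus *Lrp2* sh1. There replicate 2 had r = 0.287 with its own number against 0.233 at best with another, and replicate 3 had 0.322 against −0.203. Whether the numbers pair the mice was not tested further. With a replicate block, calls over all genes were 1086 in nSREBP2, 134 in *Lrp2* sh1, 751 in *Lrp2* sh2, 231 in GFP, 131 in ctrl sh and 995 between hairpins, and other retinoid calls were 0 in *Lrp2* sh1 and 0 in ctrl sh. With each library left out in turn, calls over all genes ranged from 967 to 1344 in nSREBP2, 110 to 221 in *Lrp2* sh1, 698 to 891 in *Lrp2* sh2, 57 to 362 in GFP, 79 to 423 in ctrl sh and 759 to 1037 between hairpins. Those among the 10 genes ranged from 1 to 2 in nSREBP2 and 2 to 3 in *Lrp2* sh2, stayed 2 between hairpins and 0 in the other comparisons. Those among other retinoid genes ranged from 7 to 11, 0 to 3, 5 to 8, 4 to 9, 0 to 5 and 7 to 10 in the same order as all genes. Depth limits *Crabp1* and, outside *Lrp2* sh2, *Dhrs9*.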
